A study of Mus musculus with 288 samples.

Results

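The kidney of mice after intermittent hypoxia (IH) was compared between subjective day and subjective night. The 24 kidney libraries made after IH were taken out of 288 libraries of 6 tissues. Of these, 12 were collected at 1:30, 4:30, 7:30 and 10:30 (day) and 12 at 13:30, 16:30, 19:30 and 22:30 (night), with 3 libraries per time point. Of 35904 genes in the files, 9110 had a mean of at least 5 TPM (transcripts of a gene, corrected for length, as a share of all transcripts of the library) in the 24 libraries and were tested.

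All mice were wild type males of the C57BL/6J strain and were 8 weeks old when the 7 days of exposure began. In the IH group the inspired oxygen cycled between 21% and 8% during the light, inactive phase, with room air during the dark, active phase. The normoxia group breathed room air throughout. Both groups were then moved to constant darkness in room air, and tissues were collected on day 2 of darkness, so that no library was made during hypoxia or in light, and every comparison concerns what persisted after the exposure. The times are circadian times, and the subjective day is the resting phase of the mouse. Each time point is a different set of mice, and males alone were used, so the series is a cross-section and not a follow-up of single animals. Nothing in the labels ties a replicate number to a litter or a day, and the p-values measure the spread among these libraries.

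In the circadian clock of mammals, CLOCK and BMAL1 (the product of Arntl) bind E-box elements and switch on the Per and Cry genes, whose proteins then repress them. The same pair drives Nr1d1 and Nr1d2, which encode the REV-ERB repressors, and these compete with the ROR activators at the ROR element of Arntl, Nfil3 and Cry1. Another group, the PAR bZIP activators Dbp, Tef and Hlf and the repressor Nfil3, acts on D-box elements. In the kidney this clock is known to time salt and water excretion and tubular transport.

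Upstream sequence is shown here for Cry1, the clock gene with the largest rise at night, and for 5 chaperone genes of the endoplasmic reticulum described further on, because their windows hold elements read by the clock or by the unfolded protein response. The sequences come from RefSeq on build GRCm38.p6, the coordinates of mm10 that the labels name. Each was cut to the bases before the start that lie outside every exon of GENCODE release M21. It is written 5′ to 3′ in lower case, with the matched element in capitals.
Cry1 (chr10:85185065-85185304, minus strand): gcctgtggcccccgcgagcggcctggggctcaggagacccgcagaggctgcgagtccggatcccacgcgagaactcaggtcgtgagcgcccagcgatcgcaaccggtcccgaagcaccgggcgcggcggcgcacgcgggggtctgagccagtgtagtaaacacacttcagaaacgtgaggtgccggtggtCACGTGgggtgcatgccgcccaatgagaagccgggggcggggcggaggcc
Hsp90b1 (chr10:86705510-86705694, minus strand): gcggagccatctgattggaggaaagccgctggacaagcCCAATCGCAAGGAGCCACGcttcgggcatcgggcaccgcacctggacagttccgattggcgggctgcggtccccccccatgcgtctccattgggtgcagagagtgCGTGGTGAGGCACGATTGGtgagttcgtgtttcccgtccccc
Pdia6 (chr12:17266339-17266544, plus strand): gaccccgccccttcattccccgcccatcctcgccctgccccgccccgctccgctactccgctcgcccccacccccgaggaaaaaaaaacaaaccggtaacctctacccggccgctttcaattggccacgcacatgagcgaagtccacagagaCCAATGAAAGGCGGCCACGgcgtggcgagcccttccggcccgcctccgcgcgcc
Dnajc3 (chr14:118937682-118937931, plus strand): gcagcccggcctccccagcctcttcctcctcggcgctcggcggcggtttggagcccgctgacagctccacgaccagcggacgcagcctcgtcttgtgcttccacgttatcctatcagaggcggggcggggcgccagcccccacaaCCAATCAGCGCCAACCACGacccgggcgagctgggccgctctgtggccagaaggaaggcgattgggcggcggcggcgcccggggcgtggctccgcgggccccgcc
Creld2 (chr15:88819396-88819645, plus strand): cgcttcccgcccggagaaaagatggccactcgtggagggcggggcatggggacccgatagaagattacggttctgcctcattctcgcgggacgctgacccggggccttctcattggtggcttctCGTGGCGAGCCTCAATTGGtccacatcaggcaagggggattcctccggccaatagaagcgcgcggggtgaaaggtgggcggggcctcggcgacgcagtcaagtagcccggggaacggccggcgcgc
Calr (chr8:84846935-84847181, minus strand): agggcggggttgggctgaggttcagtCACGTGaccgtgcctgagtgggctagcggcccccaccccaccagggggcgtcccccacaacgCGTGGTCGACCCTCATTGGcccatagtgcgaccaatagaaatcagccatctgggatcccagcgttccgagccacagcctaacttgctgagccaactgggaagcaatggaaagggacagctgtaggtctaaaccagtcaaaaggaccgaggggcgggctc

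The capitals in Cry1 mark an E-box (CACGTG) that begins 60 bases before the start. Calr holds an E-box too, 224 bases before its start. The other capitals mark the endoplasmic reticulum stress element, CCAAT and CCACG set 9 bases apart, on either strand. Hsp90b1 holds this element at 2 places, 212 and 107 bases before its start. Over 32851 windows of 300 bases (250 before and 50 after a start), 7.15% held an E-box and 0.119% the stress element. The search also covered the ROR element (TAGGTCA or TGGGTCA), found in 6.45% of windows, the D-box (TTATGTAA or TTACGTAA), found in 1.06%, and the heat shock element (GAA, TTC and GAA, or TTC, GAA and TTC, each set 2 bases apart), found in 0.603%, all on both strands. Of the 30 clock genes and genes called between day and night that the search named, 23 had a window. Besides Cry1, among them an E-box was found in Tef, 138 bases before the start, and a ROR element in Nfil3 and Gjb2, 12 and 191 bases before it, and in Arntl, 30 bases after it. The windows of Nr1d1, Dbp, Nr1d2, Hspb1 and Sdf2l1 held none of these letters, and Per2 had no window. A match is a description of the letters and not evidence of binding.

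The 24 libraries each summed to between 997064 and 998997 TPM. The number of genes above 0 was 21940 ± 572 (SD, n = 12) by day and 22413 ± 745 at night, a difference that did not pass (permutation test, 2-sided, p = 0.0969). The library of replicate 3 at 19:30 stood apart, with a median r of 0.925 to the others across genes (other libraries at least 0.958).

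The labelled tissue was matched by its markers, since the 6 proximal tubule markers summed to a median of 42305 TPM by day and 42882 TPM at night, and lung markers to under 1 TPM at the median. Markers of 2 neighbouring tissues had higher medians at night. The 6 adrenal cortex markers (Cyp11b1, Cyp11b2, Cyp21a1, Cyp11a1, Star and Hsd3b1) summed to between 0.660 and 181.5 TPM by day (median 1.21) and between 0.934 and 157.8 TPM at night (median 33.0). They were at 10 TPM or more in 1 of 12 day and 8 of 12 night libraries, and none of the 6 was at 0 in all libraries. In the kidney of normoxia they reached 10 TPM in 2 of 12 day and 4 of 12 night libraries, with a highest sum of 119.1 TPM. The 6 adipocyte markers summed to a median of 531.8 TPM by day (331.7 to 813.1) and 791.0 TPM at night (470.1 to 1079). After IH the adrenal sums also differed widely among libraries of the same hour. At 1:30 they were 0.660, 1.15 and 181.5 TPM, and at 13:30 they were 155.5, 101.9 and 1.04 TPM. At 4:30, 7:30 and 10:30 no library reached 10 TPM. The adrenal sum therefore did not follow the hour alone, and its source was not tested. In bulk tissue, a change in the share of a cell type and a change of RNA per cell cannot be told apart.

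The night and day levels of most genes in the kidney after IH overlapped, and the night-day contrast was carried by a small set in which clock genes had the largest changes. At a Benjamini-Hochberg adjusted p of 0.05 or less (limma, on log2(TPM + 0.5) after scaling each library), 16 genes were higher at night (0.176% of those tested) and 20 were higher by day (0.220%). With a change of at least 1.5-fold as well, 5 genes were called higher at night (0.0549%) and 6 higher by day (0.0659%). Among the 5 were Cry1, Sdf2l1, Hspb1 and the predicted gene Gm4956. The 6 were Nr1d1, Clec2h, Tmem86a, Gjb2, Slc6a19 and Ell3. On TPM as deposited, without that scaling, 5 genes were called higher at night and 2 higher by day, and the median of all genes moved from -0.01 to 0.06 on the log2 scale. In 3 genes, or 0.0329%, the 12 day and 12 night libraries did not overlap, Nr1d1 and Eif4e3 among them. Without any adjustment, 902 genes had a p of 0.05 or less.

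Nr1d1 (chr11:98767932-98775333) had the largest fall from day to night. Its TPM ranged from 11.9 to 43.3 by day with a median of 17.6, and from 1.09 to 10.9 at night with a median of 3.15. No night library reached the lowest day library. The level by day was 5.69-fold that at night (log2 night minus day -2.51 ± 0.27 SE, limma adjusted p = 4.68e-06, n = 12 and 12). By time point, its mean was 27.8 ± 8.67 TPM (SD, n = 3) at 4:30 and 1.84 ± 0.576 TPM at 16:30.

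Cry1 (chr10:85131700-85185064), which encodes a repressor of CLOCK and BMAL1, went the opposite way. Cry1 lay between 0.698 and 5.03 TPM by day (median 2.06) and between 4.78 and 11.9 TPM at night (median 8.21). The groups overlapped in a single pair, the highest day library, from 10:30, and the lowest night library, from 13:30. Its log2 difference was 1.65 ± 0.21 (SE, limma adjusted p = 6.56e-05), a 3.14-fold higher level at night. Nr1d1 and Cry1 were also past the threshold without each replicate number and without each time point in turn.

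**Figure D1:**
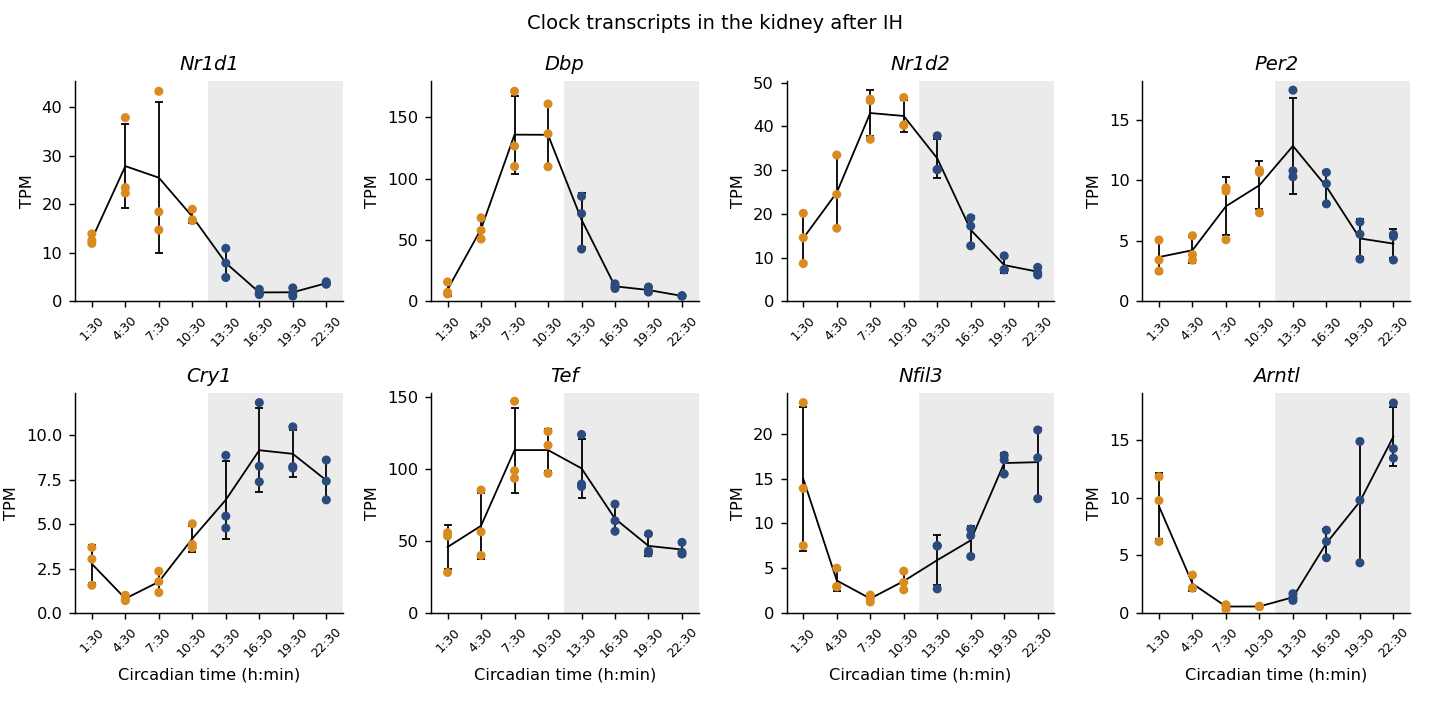
TPM of 8 clock transcripts in the 24 kidney libraries after IH against circadian time, with orange points for subjective day, blue points for subjective night on grey, and black lines for the mean ± SD of 3 libraries. Nr1d1 is high at 4:30 and 7:30 and Cry1 at 16:30 and 19:30. The peaks of a fitted 24-hour cosine lie at 9.28 h for Dbp, 9.40 h for Nr1d2 and 10.4 h for Tef. They lie at 12.8 h for Per2, 21.0 h for Nfil3 and 21.8 h for Arntl.

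Many other clock genes passed a test of daily rhythm but not the night-day test. Of the 23 genes of the 5 clock lists that were tested, 3 passed the night-day test, while 12 passed a test of a 24-hour cosine at an adjusted p of 0.05 or less, against 4.77% of all genes tested (435 of 9110). The cosine fit gives the hour of the peak and an amplitude, which is the log2 difference from the mean to the peak. A gene that peaks at the change from day to night has equal levels in both parts.

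Among the activators, Arntl had an amplitude of 1.97 ± 0.10 (log2, SE) with a peak at 21.8 ± 0.199 h (SE, limma adjusted p = 7.77e-12). Its mean was 15.3 ± 2.56 TPM (SD, n = 3) at 22:30 and 0.561 ± 0.207 TPM at 7:30, yet 9.26 ± 2.85 TPM at 1:30, so its high levels ran from late night into early day. Its night-day difference of 1.37 ± 0.50 (log2, SE) gave an adjusted p of 0.282 with limma. Clock, its partner, had a small cosine amplitude of 0.23 ± 0.08 (log2, SE) that did not pass (limma adjusted p = 0.227).

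Among the repressors, Per2 peaked at 12.8 h, Cry2 at 13.0 h and Bhlhe40, which encodes the E-box repressor DEC1, at 12.1 h, and Cry1 later, at 17.6 h. All 4 passed the cosine test. Per2 rose from 3.66 ± 1.30 TPM (SD, n = 3) at 1:30 to 12.9 ± 4.00 TPM at 13:30. Its amplitude was 0.77 ± 0.08 (log2, SE, limma adjusted p = 6.77e-07) and its night-day difference 0.26 ± 0.23 (log2, SE, adjusted p = 0.839). Per1, Per3, Ciart and Bhlhe41 had means under 5 TPM and were not tested. Their highest time point means were 11.1 TPM at 10:30 for Per1, 7.01 TPM at 7:30 for Per3, 8.72 TPM at 10:30 for Ciart and 2.50 TPM at 7:30 for Bhlhe41.

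Nr1d2, which encodes the second REV-ERB repressor, peaked at 9.40 h, later than Nr1d1 at 6.55 ± 0.229 h (SE). It was at 43.1 ± 5.20 TPM (SD, n = 3) at 7:30 and at 6.78 ± 0.904 TPM at 22:30. Its night-day difference of -1.12 ± 0.31 (log2, SE) did not pass, with an adjusted p of 0.120 in limma. Rora, which encodes a ROR activator, had an amplitude of 0.10 ± 0.06 (log2, SE, adjusted p = 0.696).

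Dbp had the largest amplitude of the clock genes. It reached 136 ± 31.7 TPM (SD, n = 3) at 7:30 and was at 4.43 ± 0.224 TPM at 22:30, with an amplitude of 2.48 ± 0.13 (log2, SE) and a peak at 9.28 h (limma adjusted p = 7.77e-12). Its day libraries spanned 5.97 to 171 TPM, and the 1:30 libraries were low at 9.70 ± 5.32 TPM. Its night-day difference of -2.07 ± 0.59 (log2, SE) came with an adjusted p of 0.134. Tef peaked at 10.4 h with an amplitude of 0.77 ± 0.06 (log2, SE), and Nfil3 at 21.0 h with 1.39 ± 0.13. Hlf did not pass the cosine test (adjusted p = 0.213).

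Of the 9 kinases and ubiquitin enzymes that act on clock proteins, 1 passed the cosine test. This was Usp2, a deubiquitinase, with a peak at 11.9 h and an amplitude of 0.55 ± 0.09 (log2, SE, limma adjusted p = 0.00118). The night-day differences of Csnk1d, Csnk1e, Csnk1a1, Gsk3b, Btrc, Fbxw11, Csnk2a1 and Usp2 lay between -0.21 and 0.11 on the log2 scale, and none passed.

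When the 8 time points were fitted as groups, so that differences among the time points of one part of the day did not enter the error, 102 genes passed at an adjusted p of 0.05 (1.12%), and 15 were called higher at night and 10 higher by day with 1.5-fold. Dbp then had an adjusted p of 1.11e-09, Nr1d2 of 7.28e-08, Arntl of 1.46e-06 and Nfil3 of 0.000129, with the same differences.

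Of the other genes called higher at night, Sdf2l1 (chr16:17130138-17132383) encodes a partner of the chaperones of the endoplasmic reticulum. It ranged from 8.45 to 48.4 TPM by day (median 12.9) and from 21.2 to 75.5 TPM at night (median 39.1), with a log2 difference of 1.23 ± 0.27 (SE, limma adjusted p = 0.0426). The overlap came from 3 day libraries, 2 from 1:30 and 1 from 4:30, and at 1:30 the mean was 37.0 ± 17.4 TPM (SD, n = 3). Hspb1 (chr5:135887919-135889563) encodes a small heat shock protein, and ranged from 19.8 to 55.8 TPM by day (median 29.7) and from 37.9 to 94.8 TPM at night (median 47.1). The log2 difference was 0.73 ± 0.15 (SE, limma adjusted p = 0.0254). Gm4956 was named after its values were seen, with a log2 difference of 0.63 ± 0.13 (SE, limma adjusted p = 0.0309).

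Among the genes called higher by day, Slc6a19 (chr13:73679745-73704865) encodes the transporter that takes neutral amino acids back from the proximal tubule. It ranged from 37.3 to 125 TPM by day (median 59.9) and from 28.8 to 72.0 TPM at night (median 44.0). Its groups overlapped widely, and the log2 difference was -0.72 ± 0.15 (SE, limma adjusted p = 0.0309). Gjb2 (chr14:57098600-57104702), a gap junction protein, had medians of 44.9 TPM by day and 25.5 TPM at night and a log2 difference of -0.74 ± 0.14 (SE, limma adjusted p = 0.0150). It was lowest at 19:30, with 20.8 ± 4.70 TPM (SD, n = 3).

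Tmem86a (chr7:47050601-47054777), which encodes an enzyme that breaks down lysoplasmalogen, ranged from 19.6 to 42.4 TPM by day (median 26.3) and from 10.5 to 25.2 TPM at night (median 14.8). Its log2 difference was -0.86 ± 0.15 (SE, limma adjusted p = 0.00635). Clec2h (chr6:128662385-128677374), a C-type lectin gene, had medians of 46.9 TPM by day and 27.3 TPM at night and a log2 difference of -0.90 ± 0.19 (SE, adjusted p = 0.0365). Ell3 (chr2:121439010-121444278), an elongation factor of RNA polymerase II, had medians of 9.88 and 6.17 TPM and a log2 difference of -0.68 ± 0.13 (SE, adjusted p = 0.0150). All 3 reached their lowest mean at 16:30, at 11.4 ± 0.817 TPM (SD, n = 3) for Tmem86a, 19.1 ± 7.21 TPM for Clec2h and 4.25 ± 0.592 TPM for Ell3. The annotated spans of Nr1d1, Dbp, Slc6a19 and Ell3 overlap that of another gene, and the strand setting of the quantification is not given in the sources used here, so reads in the shared part cannot be told apart.

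**Figure D2:**
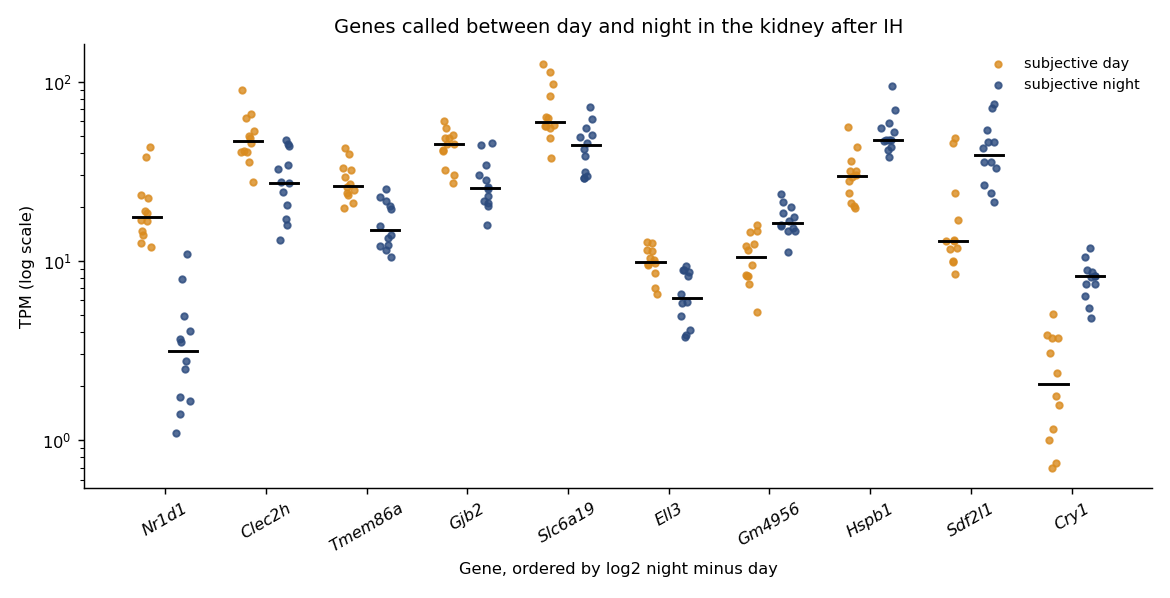
TPM on a log scale of 10 of the 11 genes called between day and night in the kidney after IH, with 1 point per library (12 day in orange, 12 night in blue) and a bar at the median of each group, ordered by log2 night minus day. Nr1d1 shows no overlap, Cry1 little, and the other 8 genes overlap more widely.

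The remaining 25 genes past the adjusted p changed by less than 1.5-fold, and those named here were named after their values were seen. Tardbp, which encodes TDP-43, had medians of 114 TPM at night and 72.8 TPM by day (log2 difference 0.52 ± 0.09 SE, limma adjusted p = 0.0108). Hnrnpa1 had a log2 difference of -0.26 ± 0.06 (SE, limma adjusted p = 0.0339). Also higher at night were G0s2, which encodes an inhibitor of triglyceride lipase, by 0.54 ± 0.12 (log2, SE, adjusted p = 0.0460), Ackr3, a chemokine receptor, by 0.56 ± 0.12 (adjusted p = 0.0339), and Tek, the endothelial receptor of angiopoietins, by 0.28 ± 0.06 (adjusted p = 0.0473). Others were Cacybp, E2f6, Eif4e3, Slc9a3r2, Tfec, Tmem200b and Zfyve16 at night, and Ankrd65, Armh4, Asb9, Limd2, Maged2, Mettl27, Morn4, Mrnip, Mtmr14, Nme4, Pik3ip1 and Spg21 by day.

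The night-day calls moved with a few libraries. Leaving out the library of replicate 3 at 1:30 gave 21 calls in place of 11. Leaving out replicate 1 or 3 at 4:30, replicate 1 at 7:30, or any library of 16:30 gave 6 calls. Without the whole time point 1:30, 41 genes were called, and without 4:30, 7:30 or 16:30 there were 3, 4 and 4. Leaving out 13:30 gave 17 calls. The 36 genes past the adjusted p alone became 84 without replicate 3 at 1:30 and 74 without replicate 3 at 19:30. They became between 9 and 23 without any one library of 16:30, replicate 1 or 3 at 4:30 or 7:30, replicate 1 or 2 at 10:30 or 13:30, replicate 1 at 1:30 or 22:30, or replicate 2 at 19:30, with the fewest without replicate 3 at 16:30.

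The largest log2 difference of any gene was that of Hsd3b1, a steroidogenic enzyme, at 2.72 ± 0.91 (SE), which did not pass (limma adjusted p = 0.216). Without the 9 libraries whose adrenal cortex markers summed to 10 TPM or more, which left 11 day and 4 night libraries, Nr1d1 remained called at -2.53 (log2, adjusted p = 0.0104). Cry1 then had a difference of 1.77 (adjusted p = 0.104) and Sdf2l1 of 1.11 (adjusted p = 0.570). Clec2h, Ell3, Gjb2, Gm4956, Hspb1, Slc6a19 and Tmem86a kept their direction, with adjusted p between 0.267 and 0.621 (limma). The 147 genes that then passed the cosine test included Nr1d1, Cry1, Dbp, Arntl and 4 of the 17 chaperones of the endoplasmic reticulum (11 in all 24 libraries). The part of these tissues in the other calls was not tested.

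The peaks of the 435 rhythmic genes were spread over the whole day, with 187 between 0 and 12 h and 248 between 12 and 24 h. On TPM as deposited the test passed 35 and 105 genes in these spans. The fullest 3-hour bin was 21 to 24 h, with 102 genes, and the emptiest was 3 to 6 h, with 27. Of the 435, 34 also passed the night-day test. They peaked between 3 and 9 h (20 genes) or between 15 and 21 h (14 genes), and the bins on either side of the changes between day and night held none of them. Tek and Zfyve16 passed the night-day test alone. Leaving out the library of replicate 3 at 19:30 raised the count of rhythmic genes to 655. Leaving out the 8 libraries of replicate 1 lowered it to 73.

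**Figure D3:**
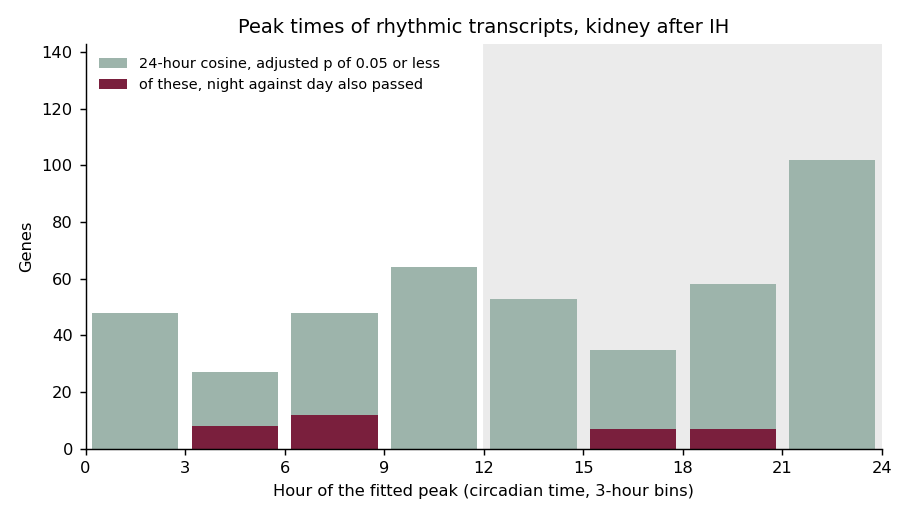
Number of genes past the 24-hour cosine test in the kidney after IH by the hour of their fitted peak, in bins of 3 hours, with the genes that also passed the night-day test in dark red and subjective night on grey. The 102 genes that peak between 21 and 24 h include none past the night-day test.

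Genes with large amplitudes outside the core clock lists were named after their values were seen, in each stretch of the day. In the first hours of the day Ddc, which encodes the decarboxylase that makes dopamine, peaked at 1.25 h with an amplitude of 0.78 ± 0.07 (log2, SE, limma adjusted p = 2.76e-07). Ethe1, a mitochondrial enzyme of sulfide oxidation, peaked at 0.741 h with 0.71 ± 0.07 (adjusted p = 1.89e-07). Around the change to night, Coq10b peaked at 10.9 h with 0.68 ± 0.05 and Wee1, which encodes a kinase that holds back mitosis, at 12.2 h with 0.65 ± 0.06. Both are clock output genes of the fixed list. In that list 7 of 14 tested members passed the cosine test, against 4.77% of all genes, and none the night-day test (list median 0.01, all genes -0.01, log2).

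In the early night, Nat8f5 peaked at 14.7 h with an amplitude of 1.35 ± 0.08 (log2, SE, limma adjusted p = 1.12e-10). Its span overlaps that of its paralog Nat8f6, which peaked at 13.1 h, and the split of reads between them is uncertain. At the end of the night, Slc16a1, which encodes a carrier of lactate and pyruvate, peaked at 22.0 h with 1.02 ± 0.06 (adjusted p = 5.95e-11) and rose from 4.86 ± 1.63 TPM (SD, n = 3) at 7:30 to 21.5 ± 3.51 TPM at 22:30. Ndrg1, a gene known to respond to hypoxia, peaked at 22.1 h with 0.95 ± 0.10 (adjusted p = 1.75e-06) and went from 353 ± 151 TPM at 7:30 to 1441 ± 293 TPM at 22:30. Ppard, a nuclear receptor of fatty acids, peaked at 22.8 h with 1.18 ± 0.10, and Cdkn1a, which encodes the cell cycle inhibitor p21, at 21.3 h with 0.91 ± 0.08.

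Chaperones of the endoplasmic reticulum fold secreted and membrane proteins. In the scaled fit of all 24 libraries they were the pathway list with the most rhythmic members outside the clock. Of 17 genes tested, 11 passed the cosine test, against 4.77% of all genes, and 10 of the 11 peaked between 12 and 24 h. Hsp90b1 peaked at 20.2 h (amplitude 0.52 ± 0.09, log2, SE, limma adjusted p = 0.00110), Pdia6 at 21.3 h (0.46 ± 0.08, adjusted p = 0.00137) and Creld2 at 18.4 h (0.67 ± 0.15, adjusted p = 0.0187). Hspa5, the central chaperone BiP, ranged from 162 ± 63.2 TPM (SD, n = 3) at 7:30 to 537 ± 154 TPM at 16:30 and peaked at 18.7 h (adjusted p = 0.0349). Dnajb9 at 12.3 h and Herpud1 at 11.9 h peaked earlier than the others.

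In the night-day comparison Sdf2l1 alone of this list passed. Of the 17 members, 16 had higher night values, against 4179 of all 9110 genes (list median 0.26, all genes -0.01, log2). On TPM as deposited, 4 of the 17 passed the cosine test, as did 7 of 14 clock output genes and 4 of 10 glucocorticoid targets. On that scale 16 of the 17 had higher night values, against 6586 of all 9110 genes. Leaving out the library of replicate 3 at 19:30 left 9 of the 17 past the cosine test. Of the 7227 tested genes with a promoter window, 13 held the stress element shown above (0.180%). Among these 13, Hsp90b1, Pdia6, Dnajc3, Creld2, Hspa5, Calr and the splicing factor gene Hnrnpa3 passed the cosine test, and all 7 peaked between 18.4 and 21.8 h. Of the 205 rhythmic genes with a window that peaked at night, 3.41% held the element, and of the 138 that peaked by day, 0%. For the E-box the shares were 13.7% and 10.1%, against 12.5% of all tested genes. The 13 genes include 6 chaperones of the list that passed, so the element and the list are not separate evidence.

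**Figure D4:**
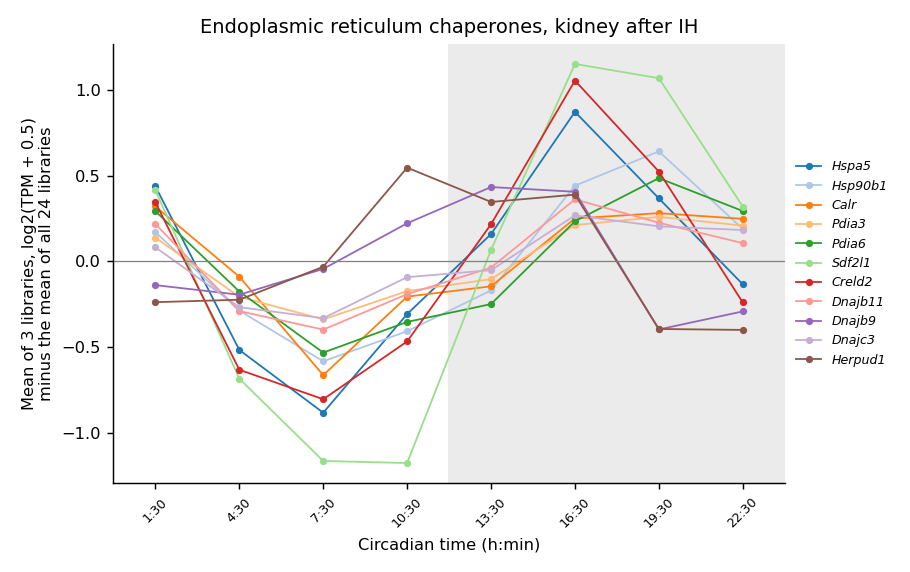
Mean of 3 libraries at each circadian time, as log2(TPM + 0.5) minus the mean of all 24 libraries, for the 11 chaperone genes of the endoplasmic reticulum that passed the 24-hour cosine test in the kidney after IH, with subjective night on grey. Of the 11 lines, 8 are lowest at 7:30 and highest between 16:30 and 1:30, and Herpud1 and Dnajb9 are highest between 10:30 and 16:30.

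Heat shock chaperones of the cytosol also had mostly higher night values. Of 22 tested, 18 had higher night values (list median 0.24, log2), against 4179 of all 9110 genes. Hspb1 was the 1 member past the night-day test. The cosine test was passed by 4 members, against 4.77% of all genes. These were Hspb1, Hsp90aa1, Ahsa1 and Fkbp4, with peaks between 18.7 and 21.0 h. Without the 9 libraries with adrenal markers 1 member passed the cosine test. There 20 of 22 had higher night values, against 4753 of all 9110 genes. Hsp90aa1 was at 378 ± 115 TPM (SD, n = 12) at night and 262 ± 123 TPM by day, with a night-day adjusted p of 0.287 in limma. Neither of the 2 cold-inducible RNA-binding genes passed the night-day test, with Cirbp at -0.55 ± 0.19 (log2, SE, limma adjusted p = 0.248) and Rbm3 at -0.07 ± 0.15 (adjusted p = 0.944). Rbm3, named after its values were seen, passed the cosine test with a peak at 11.4 h (adjusted p = 0.00113).

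Of 10 tested targets of the glucocorticoid receptor, 6 passed the cosine test, against 4.77% of all genes, and none the night-day test (list median 0.03, log2). The cosine count was 3 without the 9 libraries with adrenal markers and 4 on TPM as deposited. Tsc22d3, which encodes the glucocorticoid-induced leucine zipper and stands in the list of clock output genes, peaked at 15.1 h, with 63.5 ± 8.13 TPM (SD, n = 3) at 16:30 and 15.0 ± 2.18 TPM at 4:30. Fkbp5 peaked at 15.3 h, Ddit4 at 17.7 h and Cdkn1a at 21.3 h. The metallothionein genes Mt1 and Mt2, close paralogs, peaked by day instead, at 5.61 h and 6.01 h, and Mt2 had a night-day difference of -0.67 ± 0.16 (log2, SE, limma adjusted p = 0.0601).

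Of the genes of tubular transport, few passed either test after IH. In the proximal tubule list, 20 of 25 members had lower night values (median -0.17, log2), against 4931 of all 9110 genes, and Slc6a19 alone passed. This direction did not hold without the 9 libraries with adrenal markers, where 9 of 25 had lower night values. Of 24 tested genes of the thick ascending limb and distal tubule, 23 of the collecting duct and 23 of organic ion and drug transport, none passed the night-day test, with medians of -0.01, -0.04 and -0.14 (log2). The members with the smallest p were Kcnj1, the potassium channel of the thick ascending limb, at 0.14 ± 0.08 (log2, SE, limma adjusted p = 0.601), Sgk1, a kinase induced by aldosterone, at 0.56 ± 0.16 (adjusted p = 0.134), and Abcg2, a urate transporter, at -0.27 ± 0.09 (adjusted p = 0.201). Sgk1 and the vasopressin receptor gene Avpr2 passed the cosine test. Of 11 vasoactive genes tested none passed either test, and Ptger3 had the smallest p, at 0.28 ± 0.09 (adjusted p = 0.210). In normoxia the cosine test passed 13 of 25 proximal tubule genes, 7 of 23 of the collecting duct and 4 of 11 vasoactive genes. It passed there 4 of 24 genes of the thick ascending limb and distal tubule and 3 of 23 of organic ion and drug transport. The share of all genes in normoxia was 22.7%.

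No gene of the oxygen response lists passed the night-day test after IH. None of 8 oxygen sensors and HIF subunits passed the night-day or the cosine test (list median 0.03, log2), and Egln3 had the smallest p, at -0.20 ± 0.08 (log2, SE, limma adjusted p = 0.333). Of 13 tested HIF targets none passed the night-day test (median 0.15, log2), and 4 passed the cosine test, against 4.77% of all genes. These were Ndrg1, P4ha1, Hmox1 and Bnip3. Without the 9 libraries with adrenal markers 1 of the 13 passed the cosine test. Hmox1, which encodes the enzyme that degrades heme, was at 32.9 ± 7.23 TPM (SD, n = 12) at night and 23.2 ± 7.36 TPM by day (adjusted p = 0.0988). In normoxia 9 of the 13 HIF targets passed the cosine test, against 22.7% of all genes, and 2 the night-day test, against 4.16%. Of the 8 oxygen sensors and HIF subunits, 2 passed the cosine test and 1 the night-day test in normoxia.

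No member of the metabolic lists passed the night-day test. For lipogenesis (19 tested) the smallest p was that of the desaturase gene Scd2, at 0.53 ± 0.13 (log2, SE, limma adjusted p = 0.0874), and for cholesterol (20 tested) that of Insig1, at 0.47 ± 0.12 (adjusted p = 0.0874). For fatty acid oxidation (28 tested) it was Cpt1a at -0.35 ± 0.17 (adjusted p = 0.511), and for gluconeogenesis (13 tested) the glucose-6-phosphatase gene G6pc at 0.44 ± 0.18 (adjusted p = 0.368). In the lists of glycolysis, drug metabolism, antioxidants, and amino acid and NAD metabolism, the members with the smallest p were Pdk2, Sult1d1, Tkt and Amd1, at adjusted p of 0.541, 0.201, 0.539 and 0.125. The medians of these 8 lists lay between -0.09 and 0.05 (log2). The cosine test (4.77% of all genes) passed 3 members each of lipogenesis and cholesterol, and 2 each of fatty acid oxidation and gluconeogenesis. It passed 1 each of glycolysis and drug metabolism, 4 of amino acid and NAD metabolism, and 0 antioxidants. Scd2, Insig1, G6pc and Amd1 were among them (limma adjusted p between 0.00882 and 0.0415). Without the 9 libraries with adrenal markers, the counts were 1 for cholesterol, 2 for amino acid and NAD metabolism, and 0 for the others.

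Nor did any member pass the night-day test among immediate early genes (10 tested), cell cycle (7), matrix (12) and interferon and MHC genes (13). There Ier3, Mcm6, Ccn2 and Cd74 had the smallest p, at adjusted p of 0.199, 0.290, 0.713 and 0.827. The cosine test passed 2, 1, 1 and 0 members of these lists, Ier3 and Ccn2 among them (limma adjusted p = 0.00312 and 0.0194). Without the 9 libraries with adrenal markers it passed 0, 1, 0 and 0. All 13 mitochondrially encoded subunits had lower night values (median -0.17, log2), against 4931 of all 9110 genes. None of the 13 passed, with mt-Nd6 at -0.20 ± 0.13 (log2, SE, limma adjusted p = 0.692). Without the library of replicate 3 at 19:30, 6 of the 13 were lower at night, and without the 9 libraries with adrenal markers 5 were.

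The question whether this night-day pattern belongs to the IH kidney was put to the 24 kidney libraries of normoxia, in a fit of all 48. Libraries with adrenal cortex markers of 10 TPM or more were kept in both treatments, and their part was not tested. In normoxia, 379 of the same genes passed the night-day test (4.16%), and 22 were called higher at night and 14 higher by day with 1.5-fold. In the same fit, which shares 1 estimate of the spread, 121 genes passed after IH (1.33%), 86 of them also in normoxia, and 9 were called higher at night and 10 higher by day. The spread within a time point differed, at a median SD of 0.226 after IH and 0.165 in normoxia (log2). A shared estimate need not match either group. All 36 genes that passed in the IH libraries alone had the same sign in normoxia, and 28 of them passed there. Across the 9110 genes the log2 differences of the 2 treatments had a Pearson r of 0.57, which describes genes and not independent replicates. Nr1d1 differed by -2.48 ± 0.25 (log2, SE) in normoxia and Cry1 by 1.72 ± 0.19. The difference between treatments was -0.03 ± 0.36 (log2, SE) for Nr1d1 and -0.07 ± 0.27 for Cry1.

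The test of the difference itself, the interaction of treatment and part of the day, passed 0 genes (0%) at an adjusted p of 0.05 in limma. It had 179 genes at an unadjusted p of 0.05 or less and a smallest adjusted p of 0.9997. The 36 genes were chosen by their difference in these same IH libraries, which by itself favours larger differences after IH than in normoxia. Among the 36 genes, Nme4 had the smallest unadjusted interaction p, at 0.00729, with a log2 difference of -0.46 after IH and -0.11 in normoxia. Clec2h differed by -0.90 after IH and by -0.51 ± 0.17 (SE) in normoxia, with an interaction p of 0.118 before adjustment in limma.

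**Figure D5:**
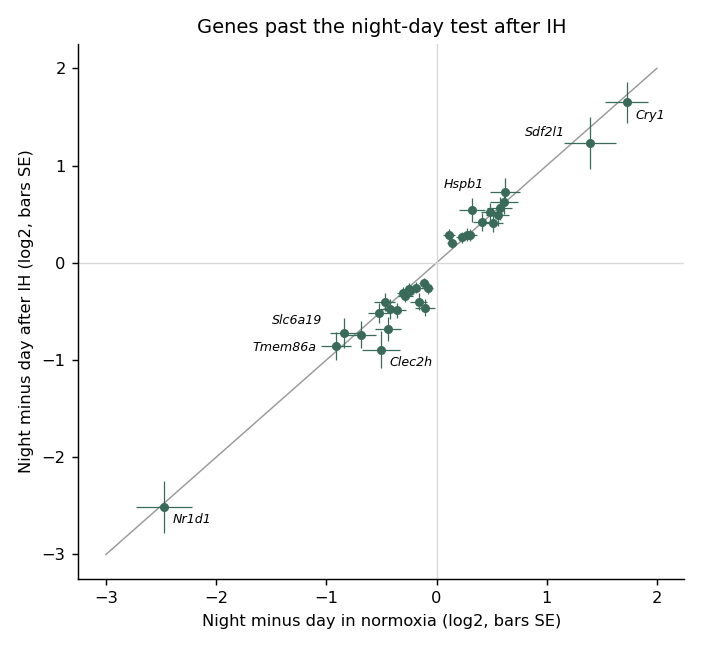
Log2 night minus day after IH (vertical) against normoxia (horizontal) for 34 of the 36 genes past the night-day test in the kidney after IH, with bars for the standard error and a line of equality. All 34 points lie in the quadrants of equal sign, at varying distance from the line. The genes were chosen by the IH libraries, which favours larger differences after IH. Nr1d1 lies close to it (-2.51 after IH, -2.48 in normoxia) and Clec2h further off (-0.90 after IH, -0.51 in normoxia).

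Fewer genes passed the cosine test after IH than in normoxia, where 2067 did (22.7%). In both treatments 349 genes passed, in normoxia alone 1718 and after IH alone 86. A test of the difference of the cosine between treatments, chosen after these counts were seen, passed 0 genes, with 223 at an unadjusted p of 0.05 or less and a smallest adjusted p of 0.971 (limma). Passing in one treatment alone is therefore not a tested gain or loss of rhythm. In the 1718 genes the median amplitude was 0.12 after IH and 0.19 in normoxia (log2), and in the 349 it was 0.32 and 0.27. The 1718 were chosen for passing in normoxia and failing after IH, which by itself favours a lower amplitude after IH. Their medians are therefore no measure of a change of rhythm. The spread of replicates within a time point moved with this count, at a median SD of 0.226 after IH and 0.165 in normoxia (log2), and its part was not tested. In the 349 genes the median of the signed difference of the peak, IH minus normoxia, was 0.00356 h. Earlier and later peaks cancel in this median. In 97.7% of these genes both peaks were within 3 h of each other. In normoxia 13 of the 17 chaperones of the endoplasmic reticulum and 13 of the 22 heat shock chaperones passed the cosine test.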

How the data were processed

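Kidney RNA was measured in 24 libraries after IH and 24 in normoxia, from directional libraries. The authors quantified reads with Kallisto (version not given in the sources used here) against an Ensembl mouse reference and summed transcripts to genes; the deposited values are TPM, scaled to a common sum, so the depth and its counting error are unknown. FastQC 0.11.3, bcl2fastq, DESeq2 and mm10 stand in the submitters' processing notes. The authors' rhythm test, MetaCycle, was not run.

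TPM of the IH libraries was scaled by the median of ratios (factors 0.686 to 1.22) and taken as log2(value + 0.5), which understates the change of low genes; TPM are quoted as deposited. Linear models were fitted in limma 3.58.1 (R 4.3.3) with an intensity trend, for night minus day, for a 24-hour cosine and sine (F test), and over 48 libraries for normoxia and the interaction. Scripts were tested on simulated data. Promoter windows came from RefSeq and positions from GENCODE M21. Other tissues were not used.

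Named were all tested clock genes; the 12 largest rises and falls among called genes, without predicted, ribosomal protein and mitochondrial genes; in each other list up to 4 called members, or else the member of smallest p; up to 6 genes past the interaction; and the 6 called genes of highest TPM. The comparison and the gene lists were chosen with earlier results of these data known. Pseudocounts, filters, scaling, time point groups, replicate block and left-out libraries were tried as alternatives. Some genes that were tested and counted are not reported here by name.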

Additional observations from a re-analysis of the deposited data

How the results depend on the processing

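The 11 genes called between night and day and the 435 past the cosine test moved with the processing, and the causes were not tested unless named. The calls numbered 17 with a mean or a maximum TPM of at least 1 (12861 and 14322 genes tested), 7 on TPM as deposited, 25 with the time points as 8 groups, 21 with mid day against mid night, 19 in the fit of 48 libraries and 36 by adjusted p alone. The cosine counts were 723 and 737 under the 2 wider filters and 140 on TPM as deposited. Fits lacking 1 replicate number or 1 time point gave between 3 and 41 calls, and fits lacking 1 replicate number gave between 73 and 426 cosine genes. Alternatives chosen after seeing the data left 1 call and 147 cosine genes without the 9 libraries with adrenal markers, and 655 cosine genes without replicate 3 at 19:30. Other pseudocounts and a fit without the trend kept 11 calls, and the interaction stayed at 0 under each alternative run for it. Nr1d1 passed under 25 of 25 settings, and Cry1 under 24 of 25. No named gene that passed turned its direction.

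With the replicate number as a block, 12 genes were called, 65 passed the adjusted p alone (36 without the block) and 686 passed the cosine test, and with the time points as groups and the block 25 were called. Under the block Scd2 (adjusted p = 0.0126), Mt2 (0.0425) and Ddit4 (0.0472) also passed the night-day test of limma. Deviations from the time point means had a median correlation of 0.25 in 84 pairs of libraries with the same number (range -0.46 to 0.86, 55 over 0.1) and of -0.12 in 168 pairs with different numbers (40 over 0.1), and 19 of 24 libraries were closest to their own number. This is a hint of a shared source from the data. The numbers were not taken as pairs, because no label ties them to one. The main counts therefore leave this structure out. The depth of each library is unknown from TPM, so counting error could not be given.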
